A study of Mus musculus with 9 samples.

Results

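The 44 genes described here are interferon-response genes and genes of the MHC class I pathway, taken by gene symbol from a fixed list out of the 24421 symbols of the count tables. All 44 were found, and all 44 were among the 14054 genes that passed the filter on low counts. They were measured in the laser model of choroidal neovascularization (CNV), in which a laser burn breaks the Bruch membrane under the mouse retina and vessels grow in from the choroid. All mice were male, 8 weeks old and carried laser burns, so that no group lacks the injury. ABTAA eyes received 5 µg of an antibody that binds angiopoietin 2 and activates Tie2, a receptor of endothelial cells, VEGF Trap eyes received 5 µg of a soluble decoy receptor for VEGF, and Fc eyes received 5 µg of the antibody Fc fragment as control, each at 5 mg/ml into the vitreous. Laser capture took each lesion with a margin of choroid and retinal pigment epithelium (RPE), and its RNA was sequenced from transcript 3′ ends, with 3 libraries per group. The mouse strain and the day of collection were not given in the sources used here, and neither was the animal behind a library, so the spread on which p-values rest may be partly technical.

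Type I interferons are secreted when cells sense foreign or misplaced nucleic acid. The receptors of type I interferons and of interferon gamma signal through JAK kinases to STAT and IRF transcription factors. Type I interferon acts mainly through a complex with STAT2 and IRF9 that binds the interferon-stimulated response element, and interferon gamma mainly through the gamma-activated site. The genes they induce encode sensors of viral RNA, proteins that block virus replication, GTPases that attack intracellular pathogens, and the MHC class I molecules that show peptides to CD8+ T cells. In the posterior eye such genes can be expressed by resident microglia and macrophages, vessels and RPE.

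The DNA in front of some of these genes is shown first, as examples of the response elements through which interferon is known to act. Whether a motif goes with the values of a gene was not tested. Among members with promoter windows that differed at least 2.76-fold between libraries, Ifit1, Ifi44, Isg15, Oas3, Rsad2, Ifit3 and Irgm1 held the first motif below. Irf7 and Xaf1 held neither motif in their windows. RefSeq promoter windows (build GRCm38.p6, 250 bases before to 50 after the start, 300 bases in all) were at hand for 33 of the 44 members, all but Dhx58, Ifi27l2a, Iigp1, Mx1, Mx2, Oas2, Parp14, Parp9, Rtp4, Tap2 and Usp18. The repeated core of the interferon-stimulated response element, GAAANNGAA on either strand, stood in the windows of 19 of these 33 genes (57.6%) and of 9.8% of all 27025 genes with windows. The gamma-activated site, TTCNNNGAA, stood in 9 of 33 (27.3%) and in 9.6% of all genes. Of the 33, 5 held both motifs, 10 held neither, and 11 held at least 2 matches of the first motif. These are letter matches, not measured binding. In the stretches below, written 5′ to 3′ on the strand of the gene, capitals mark the matches of the first motif (in Irf1, of the second), either as spelled above or as its reverse complement, and neighbouring matches can overlap. Bst2 and Igtp also hold the second motif within the stretch, at -136 and -45 from the start, which is not marked (in Bst2 its end overlaps the capitals). Isg15 (chr4:156200857-156200916, minus strand) held 3 matches running into each other, 78 to 66 bases before the start. Ifit1 (chr19:34640767-34640826, plus strand) and Ifit3 (chr19:34583368-34583441, plus strand) each held 3 in the reverse orientation. Bst2 (chr8:71537566-71537625, minus strand) and Irgm1 (chr11:48871421-48871480, minus strand) held 2 each. Igtp (chr11:58199496-58199555, plus strand), Trim25 (chr11:88999343-88999402, plus strand) and B2m (chr2:122147522-122147581, plus strand) held 1 each. Irf1 (chr11:53769898-53769957, plus strand) is shown for the gamma-activated site, 90 bases before its start.
Isg15: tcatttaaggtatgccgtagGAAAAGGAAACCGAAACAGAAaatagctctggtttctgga
Ifit1: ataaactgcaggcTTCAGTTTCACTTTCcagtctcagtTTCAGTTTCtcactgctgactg
Ifit3: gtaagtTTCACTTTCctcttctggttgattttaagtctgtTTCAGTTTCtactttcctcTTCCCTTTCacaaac
Bst2: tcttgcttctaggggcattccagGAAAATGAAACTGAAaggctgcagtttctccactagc
Irgm1: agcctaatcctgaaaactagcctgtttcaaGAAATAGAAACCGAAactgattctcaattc
Igtp: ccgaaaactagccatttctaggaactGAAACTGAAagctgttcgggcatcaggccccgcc
Trim25: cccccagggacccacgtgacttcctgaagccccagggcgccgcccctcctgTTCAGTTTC
B2m: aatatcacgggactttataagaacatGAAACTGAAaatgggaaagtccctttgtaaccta
Irf1: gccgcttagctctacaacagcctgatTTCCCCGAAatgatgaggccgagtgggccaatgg

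Total counts ran from 6335805 to 14439835 per library, and 3 counts, the floor used for detection, equalled 0.209 to 0.469 CPM (counts scaled to library size, with TMM factors). Every member was above that floor in every library, with 12 to 14091 counts. Markers of the labelled tissue were present, with all 8 RPE and all 12 endothelial markers past the filter. The column headings of the Fc tables name those libraries as controls of a knockout, unlike their titles, which were followed here. In 7 of the 44 members all 9 counts shared a divisor above 1 (2188 of 14054 tested genes), among them Irf7 and Irf9, whose counts were all multiples of 3, so their counting error is larger than the counts show. An exon on the other strand overlaps 11 of the members.

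None of the 44 members passed the adjusted threshold in edgeR between any 2 treatments. In edgeR's quasi-likelihood test with Benjamini-Hochberg adjustment over all tested genes, 0 of 44 members had an adjusted p under 0.05 in ABTAA against Fc (1.40% of all tested genes), 0 in VEGF Trap against Fc (1.02%) and 0 in ABTAA against VEGF Trap (0%). The lowest adjusted p among members was 0.0974, 0.12 and 0.949 in these comparisons. At an unadjusted p under 0.05 there were 5 members in ABTAA against Fc, 3 higher and 2 lower, which is 11.4% where all genes gave 16.9%. There were 4 in VEGF Trap against Fc, 3 higher and 1 lower (9.09% beside 15.4%), and 2 in ABTAA against VEGF Trap, 1 higher and 1 lower (4.55% beside 5.06%). Without ABTAA 1 the first count was 16 of 44, beside 15.6% of all genes, and in ABTAA against VEGF Trap 10 of 44, beside 6.88%.

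Counts of members called by other tools differed. DESeq2 called 3 members in ABTAA against Fc (3.68% of its genes), 1 in VEGF Trap against Fc (3.31%) and 0 in ABTAA against VEGF Trap, and limma-voom called 1, 0 and 0 (2.92%, 1.72% and 0% of all genes). The 3 DESeq2 calls were Eif2ak2, H2-D1 and Tap2, the call in VEGF Trap against Fc was Tap1, and the limma-voom call was Eif2ak2. With ABTAA 1 left out edgeR called Eif2ak2 (adjusted p = 0.0375), and with ABTAA 3 left out it called Tap2 (adjusted p = 0.0441).

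With all 9 libraries the members had no common direction. The median log2 fold change of the 44 was -0.01 in ABTAA against Fc, with 22 above and 22 below 0 and a range of -0.77 to 0.58. In VEGF Trap against Fc it was 0.02, with 24 above and 20 below 0 and a range of -0.52 to 0.64. These comparisons share the Fc libraries. ABTAA against VEGF Trap gave a median of -0.01, 19 above and 25 below 0, and a range of -0.60 to 0.60. These medians moved with single libraries. In ABTAA against Fc the median was -0.30 without ABTAA 1, with 6 of 44 above 0, and 0.16 without ABTAA 2, with 34 above 0. In ABTAA against VEGF Trap it was -0.31 without ABTAA 1 and 0.12 without ABTAA 2, and in VEGF Trap against Fc -0.09 without VEGF Trap 1 and 0.10 without VEGF Trap 2. Over all tested genes each median with all 9 libraries was 0.00 in size. By role, the median in ABTAA against Fc ran from -0.24 (Isg15 and Usp18) to 0.10 (MHC class I and peptide transporter genes), and in VEGF Trap against Fc from -0.41 (RNA sensors) to 0.48 (Mx genes). The members' 3 libraries did not overlap between ABTAA and Fc in 3 genes (6.82%, beside 23% of all genes), between VEGF Trap and Fc in 5 (11.4% beside 20.9%), and between ABTAA and VEGF Trap in 1 (2.27% beside 9.88%). Igtp was the member above every Fc library in ABTAA, and Eif2ak2 and H2-D1 lay below. Trim25, Igtp and Tap1 were above every Fc library in VEGF Trap, and Dhx58 and Oasl2 below.

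**Figure D1:**
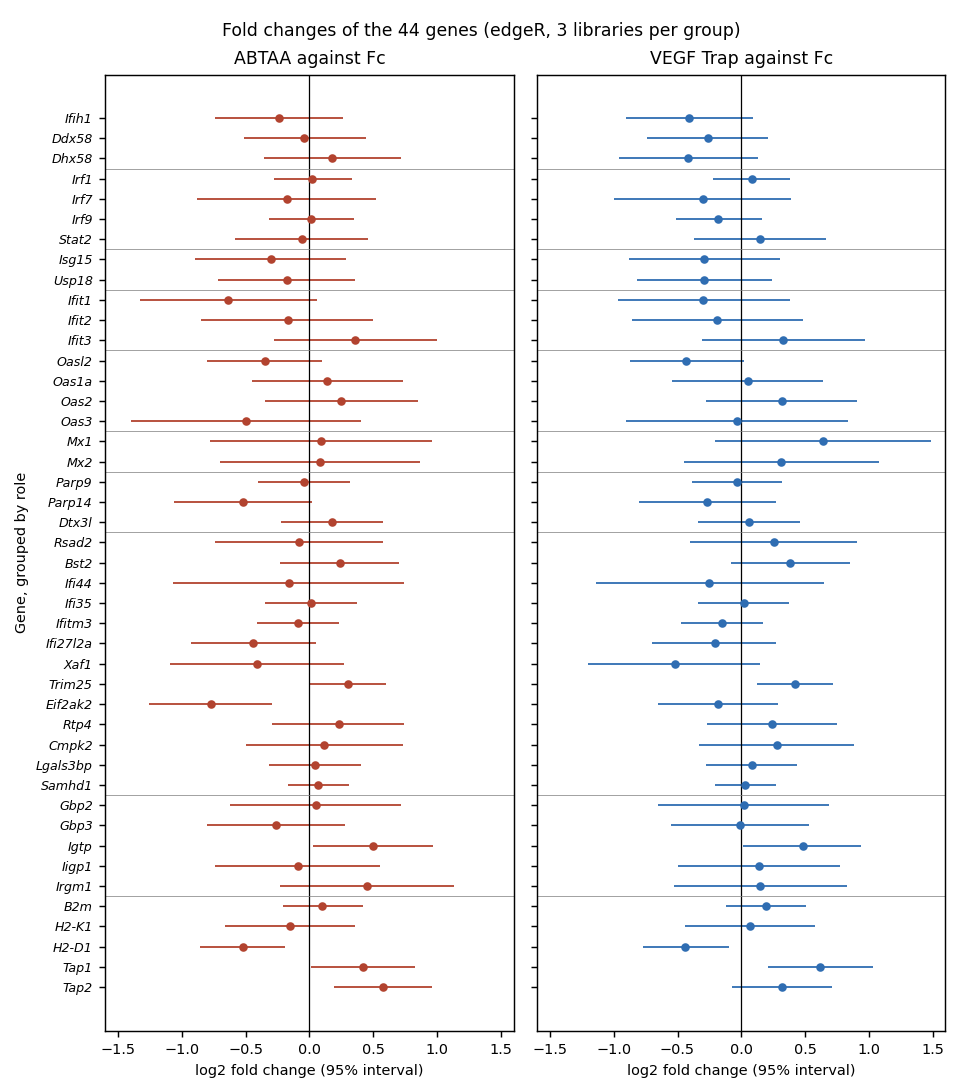
Log2 fold changes of the 44 genes (points) with 95% intervals (lines) from edgeR, for ABTAA against Fc on the left and VEGF Trap against Fc on the right, 3 libraries per group, with genes grouped by role down the page. Points lie on both sides of 0 in both panels, between -0.77 and 0.58 on the left and between -0.52 and 0.64 on the right, and no gene passed the adjusted threshold.

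What the members did show was a difference between libraries given the same treatment. All 44 were above their own group's mean in ABTAA 1, against 2 in ABTAA 2 and 13 in ABTAA 3. In the VEGF Trap group 39 were above it in VEGF Trap 1, 4 in VEGF Trap 2 and 14 in VEGF Trap 3. In the Fc group the counts were 25, 29 and 14. Over all tested genes the same share was 49.3% to 52.6% in every library. ABTAA 2 held the lowest of 9 values for 26 members (12.1% of all genes), and ABTAA 1 the highest for 22 (10% of all genes).

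The size of this difference was given by each gene's log2 CPM minus its mean over the 9 libraries. The median over the 44 was 0.44 in ABTAA 1, -0.46 in ABTAA 2 and -0.14 in ABTAA 3, then 0.33, -0.21 and -0.07 in VEGF Trap 1, 2 and 3, and 0.09, 0.14 and -0.04 in Fc 1, 2 and 3. The median over all genes was between 0.00 and 0.02 in each library. Summed over the members, ABTAA libraries held 5752, 3484 and 4229 CPM, VEGF Trap libraries 5922, 3954 and 4284, and Fc libraries 4743, 4714 and 4277. The summed levels in the Fc libraries thus lay inside the range of both treated groups.

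**Figure D2:**
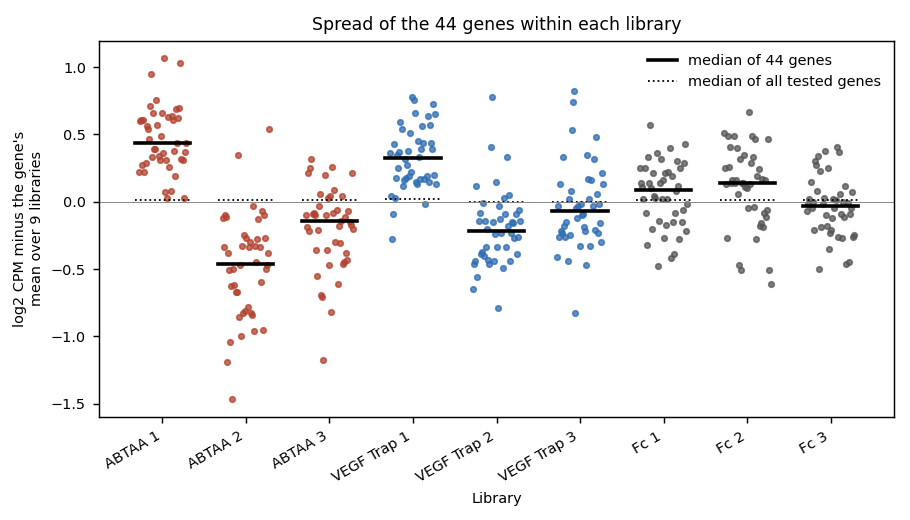
Each point is 1 of the 44 genes, plotted as its log2 CPM minus its mean over the 9 libraries, with the median of the 44 as a thick line and the median of all tested genes as a dotted line. The members' median is 0.44 in ABTAA 1 and -0.46 in ABTAA 2, while the median of all genes stays between 0.00 and 0.02.

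The spread between libraries of a group differed by group. The median SD of log2 CPM over the members was 0.51 in ABTAA, 0.34 in VEGF Trap and 0.18 in Fc. For the 11297 tested genes in the same CPM range it was 0.19, 0.20 and 0.17. Pooled within groups, the members' median SD was 0.38 beside 0.21 for those genes, and 39 of the 44 were above 0.21. From the lowest to the highest of the 9 libraries the members differed by a median of 2.24-fold, with Samhd1 at 1.29-fold and Ifit1 at 4.12-fold, beside 1.69-fold for the genes in their range. No test compares these spreads, since genes of 1 library are not replicates. No label gives a batch, an animal or a day by which the libraries could be split.

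Markers of other cells were set beside this pattern. The 15 macrophage and microglia markers, all past the filter and none at 0, summed to 2656.2, 2227.3 and 2424.5 CPM in ABTAA 1, 2 and 3, to 2956.2, 2776 and 2673.5 in VEGF Trap and to 2997.7, 2801.4 and 2795 in Fc. Of the 15, 12, 2 and 7 were above their group mean in ABTAA 1, 2 and 3, and 8, 7 and 5 in VEGF Trap. The 8 RPE markers summed to 2043.4, 2907 and 2425.6 CPM in ABTAA 1, 2 and 3, to 2339.1, 2727.8 and 2818.7 in VEGF Trap, and to 1736.1, 2717.5 and 2905 in Fc. In each group library 1 was thus the lowest for RPE markers. Of 11 lymphocyte markers 3 passed the filter. All 11 together summed to 1.72 to 5.95 CPM in ABTAA, 4.58 to 6.13 in VEGF Trap and 4.48 to 5.12 in Fc. Of the 7 neutrophil markers found 4 passed the filter. All 7 together summed to 49.1 to 65.7 CPM in ABTAA, 55.7 to 114.4 in VEGF Trap and 92 to 531.8 in Fc. The highest neutrophil value was in Fc 1. The 5 plasmacytoid dendritic cell markers, of which Bst2 is also a member, summed to 1631.9, 1460.8 and 1338.9 CPM in ABTAA 1, 2 and 3, to 1703.5, 1464.3 and 1475.8 in VEGF Trap, and to 1425.2, 1419.6 and 1320.4 in Fc. The 6 fibroblast markers summed to 7541.2, 6735.6 and 5510.2 CPM in ABTAA, to 7755.2, 7249.2 and 5907 in VEGF Trap, and to 7587.2, 6307.4 and 6404.6 in Fc. Both sums were highest in library 1 of every group, while ABTAA 2, the lowest for most members, was not the lowest ABTAA library for either. The plasmacytoid sum holds Bst2 itself, at 434.4 CPM in VEGF Trap 1 and 202.1 in VEGF Trap 2. It also holds Irf8, which is on the list of other pathway genes read below. Of the 5 markers 4 passed the filter. In Fc, Bst2 averaged 227.4 CPM and Irf8 159.5, so most of the sum came from the remaining markers. How far the sum measures plasmacytoid cells was not tested. Without Bst2 the median log2 deviation of the 3 tested plasmacytoid markers was 0.11, -0.13 and -0.17 in ABTAA 1, 2 and 3. In VEGF Trap 1, 2 and 3 it was 0.19, 0.22 and 0.07, so that library 1 was not the highest there. The 8 pericyte and smooth muscle markers summed to 1017.6, 1347.9 and 1258.1 CPM in ABTAA, to 738.7, 1042.2 and 1043.4 in VEGF Trap, and to 767.8, 942.9 and 1044.5 in Fc, and were lowest in library 1 of each group. The 12 endothelial markers summed to 2812.1 to 2963.4 CPM in ABTAA, to 2153.2 to 2375.1 in VEGF Trap and to 1842.4 to 2340.9 in Fc, so that every ABTAA library was above all others. Melanocyte markers summed to 2762.6 to 2831 CPM in ABTAA, 2209.5 to 4003.4 in VEGF Trap and 2102.8 to 2398.4 in Fc, and skeletal muscle markers to 197.5 to 405.1, 186.1 to 326 and 90.1 to 129.4 CPM. Photoreceptor markers stayed at 28.6 to 147.7 CPM, with the highest value in VEGF Trap 1. The part of these cells in the result was not tested, and in bulk tissue fewer cells of a type and less RNA per cell cannot be told apart.

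**Figure D3:**
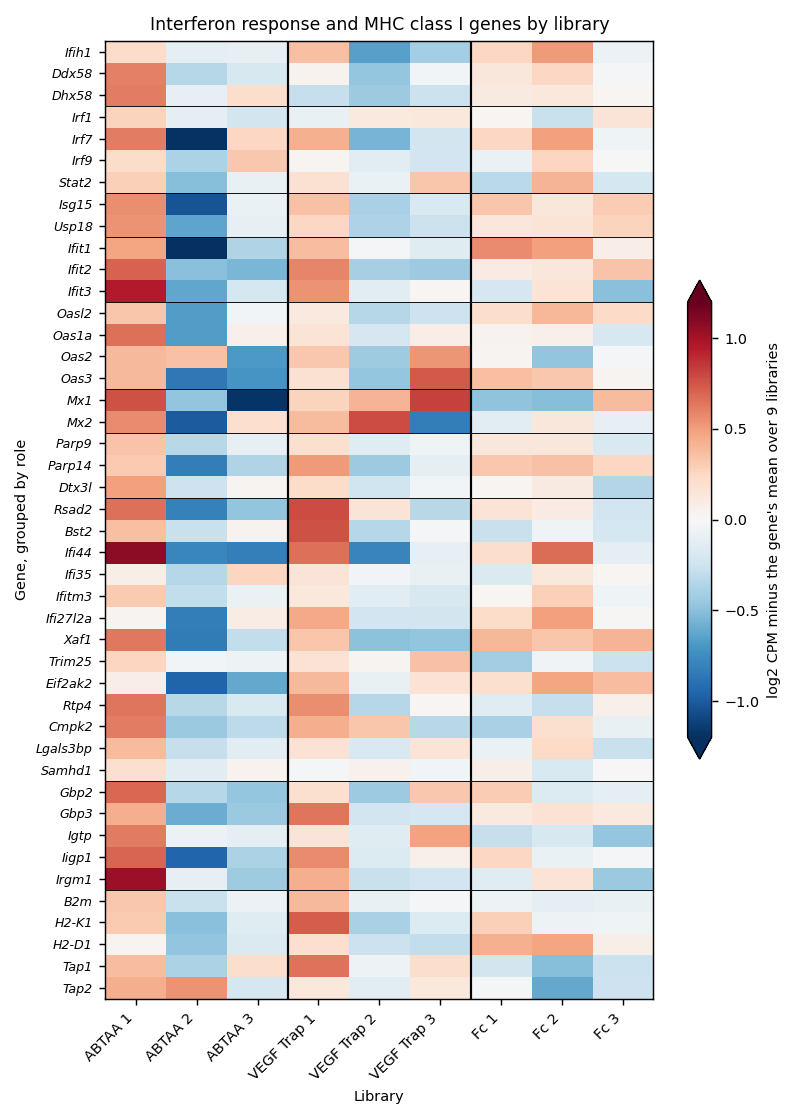
Colour gives log2 CPM minus the gene's mean over 9 libraries, from blue (below) to red (above), for the 44 genes grouped by role (rows) in the 9 libraries (columns, black lines between treatments). The ABTAA 1 column is above the mean for all 44 genes and ABTAA 2 for 2.

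The RNA sensors are Ifih1 (MDA5) and Ddx58 (RIG-I), helicases that detect viral double-stranded RNA, and Dhx58 (LGP2), a relative that tunes them. Dhx58 had 9.09, 5.55 and 6.88 CPM in ABTAA libraries, 4.89, 4.39 and 4.99 in VEGF Trap libraries, and 6.45, 6.53 and 6.03 in Fc libraries. The VEGF Trap values were below all others, and ABTAA overlapped Fc. Its log2 fold change was 0.60 ± 0.26 (SE) in ABTAA against VEGF Trap (edgeR adjusted p = 0.956) and -0.42 ± 0.26 in VEGF Trap against Fc (adjusted p = 0.473), and the first was 0.38 without ABTAA 1. Ifih1 had 23.1, 18.2 and 18.5 CPM in ABTAA, 25.5, 12.7 and 15 in VEGF Trap, and 23.5, 28.3 and 18.9 in Fc. Here the 3 groups overlapped, and VEGF Trap against Fc gave -0.41 ± 0.23 (adjusted p = 0.432), which was -0.77 without VEGF Trap 1 and -0.20 without VEGF Trap 2. Ddx58 averaged 20.7 ± 7.8 CPM in ABTAA, 17.8 ± 3.14 in VEGF Trap and 21.3 ± 2.05 in Fc (SD, n = 3 each). Its 3′ end matches a sequence in 58 other genes, so its count is uncertain.

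The transcription factors of the pathway showed no difference between treatments beyond the spread of libraries. Irf9, a DNA-binding partner of STAT2, had 220.9, 145.8 and 237.9 CPM in ABTAA, 194.7, 172.2 and 162.2 in VEGF Trap, and 179.9, 228.4 and 189.7 in Fc. The groups overlapped, with 0.19 ± 0.16 in ABTAA against VEGF Trap (edgeR adjusted p = 0.964), which was 0.05 without ABTAA 3 and 0.38 without ABTAA 2. Irf7, the factor that amplifies type I interferon production, was chosen after its values were seen and had 106.9, 30.6 and 83.1 CPM in ABTAA, 94.3, 47.4 and 59.9 in VEGF Trap, and 83, 98.5 and 67.6 in Fc. Its lowest and highest libraries both belonged to ABTAA, and ABTAA against Fc gave -0.18 ± 0.33 (adjusted p = 0.84). Irf1, an early factor of the interferon gamma response, averaged 152.2 ± 27.8, 158.8 ± 13 and 149.9 ± 21.7 CPM in ABTAA, VEGF Trap and Fc, and Stat2 averaged 11.9 ± 3.28, 13.8 ± 1.96 and 12.4 ± 3.58. Irf7 overlaps an exon of Phrf1 on the other strand and Irf1 one of Gm17334, and since the strand setting of the counting is not given, such reads could not be separated.

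Isg15 encodes a ubiquitin-like protein that is joined to other proteins after interferon, and Usp18 the enzyme that removes it and dampens the receptor. Isg15, chosen after its values were seen, had 90.7, 29.9 and 58.2 CPM in ABTAA, 78.5, 46.9 and 54.3 in VEGF Trap, and 77, 67.6 and 75.5 in Fc. ABTAA 1 was the highest of the 9 and ABTAA 2 the lowest, while the Fc libraries lay close together between them. The log2 fold change was -0.30 ± 0.28 in ABTAA against Fc (edgeR adjusted p = 0.642) and -0.29 ± 0.28 in VEGF Trap against Fc (adjusted p = 0.669). Usp18 gave the same order within ABTAA, and averaged 14.1 ± 5.69 CPM in ABTAA, 13 ± 3.12 in VEGF Trap and 15.9 ± 0.748 in Fc.

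The IFIT proteins bind viral RNA that lacks the host's cap methylation, and their genes lie side by side on chromosome 19. Ifit1 had 23.7, 6.15 and 13.3 CPM in ABTAA, 22.1, 16.9 and 15.4 in VEGF Trap, and 25.3, 23.8 and 17.9 in Fc. ABTAA 2 and 3 were the lowest of the 9 libraries and ABTAA 1 overlapped Fc, giving -0.64 ± 0.33 in ABTAA against Fc (edgeR adjusted p = 0.345). This value was -1.24 without ABTAA 1 and -0.25 without ABTAA 2. Ifit3, also chosen after its values were seen, had 392.1, 131.4 and 175.4 CPM in ABTAA, 294.8, 184.3 and 205.6 in VEGF Trap, and 176.3, 226.7 and 142.8 in Fc. Both ends of its range were again ABTAA libraries, and ABTAA against Fc gave 0.36 ± 0.30 (adjusted p = 0.6). Ifit2 averaged 15.7 ± 8.48 CPM in ABTAA, 15.6 ± 6.81 in VEGF Trap and 17.9 ± 1.66 in Fc. All 3 family members were above their group mean in ABTAA 1 and in VEGF Trap 1, and none in ABTAA 2 or VEGF Trap 2.

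**Figure D4:**
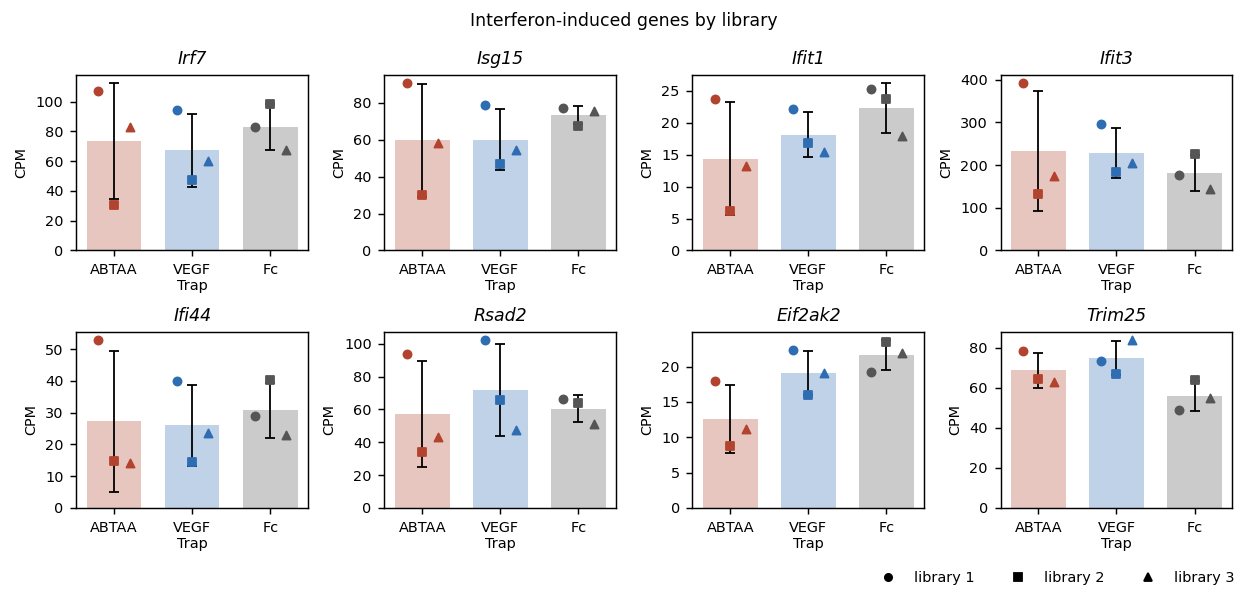
CPM of 8 interferon-induced genes in ABTAA, VEGF Trap and Fc, with bars for the mean of 3 libraries, error bars for the SD, and a circle, square and triangle for libraries 1, 2 and 3. For Isg15 the ABTAA libraries sit at 90.7, 29.9 and 58.2 CPM around the Fc libraries at 77, 67.6 and 75.5, and for Eif2ak2 all 3 ABTAA libraries are below the lowest Fc library at 19.3.

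The OAS enzymes make the oligoadenylate messenger that switches on RNase L when double-stranded RNA is present, and Oasl2 is a relative in the same family. Oasl2 had 27.8, 13.9 and 21.6 CPM in ABTAA, 24, 17.4 and 18.6 in VEGF Trap, and 25.6, 29.2 and 26 in Fc. The VEGF Trap libraries were below all Fc libraries and the ABTAA libraries overlapped both, with -0.43 ± 0.21 in VEGF Trap against Fc (edgeR adjusted p = 0.35). Oas3 had 4.03, 1.69 and 1.88 CPM in ABTAA, 3.48, 2.23 and 5.13 in VEGF Trap, and 3.92, 3.82 and 3.13 in Fc. The groups overlapped, and ABTAA against VEGF Trap gave -0.47 ± 0.43 (adjusted p = 0.965), which was -1.0 without ABTAA 1 and -0.15 without VEGF Trap 3. Oas1a averaged 9.92 ± 4.37, 9.33 ± 1.18 and 9.01 ± 0.867 CPM in ABTAA, VEGF Trap and Fc, and Oas2 averaged 14.8 ± 5.41, 15.9 ± 5.05 and 12.7 ± 2.3. The 3′ end of Oas3 matches a sequence in 3 other genes, so its count is uncertain.

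Mx1 and Mx2 encode dynamin-like GTPases that trap viral components, and the annotation lists Mx2 as a polymorphic pseudogene. Mx1 had 8.37, 3.57 and 2.19 CPM in ABTAA, 5.97, 6.55 and 8.73 in VEGF Trap, and 3.55, 3.48 and 6.41 in Fc. The groups overlapped, with -0.55 ± 0.40 in ABTAA against VEGF Trap (edgeR adjusted p = 0.964) and 0.64 ± 0.40 in VEGF Trap against Fc (adjusted p = 0.481). The first of these was -1.26 without ABTAA 1 and -0.24 without ABTAA 3. Mx2 averaged 10.8 ± 5.16 CPM in ABTAA, 12.3 ± 6.01 in VEGF Trap and 10.1 ± 1.1 in Fc. The Mx genes departed from the general order of the VEGF Trap libraries, since VEGF Trap 3 was the highest of 9 for Mx1 and VEGF Trap 2 for Mx2. This was not particular to them, as VEGF Trap 3 was also the highest of 9 for Oas2, Oas3 and Trim25.

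Parp9 and Dtx3l encode partners in an ADP-ribosylating ubiquitin ligase, and Parp14 a further ADP-ribosyltransferase. Parp14 had 37.1, 16.8 and 23.3 CPM in ABTAA, 42.6, 22 and 27.5 in VEGF Trap, and 37.4, 38 and 35.4 in Fc. Library 1 of each treated group was within or above the Fc values and the other 4 treated libraries were below all of them, giving -0.52 ± 0.26 in ABTAA against Fc (edgeR adjusted p = 0.321), which was -0.90 without ABTAA 1 and -0.28 without ABTAA 2. Parp9 averaged 53.1 ± 12.9 CPM in ABTAA, 53.4 ± 6.54 in VEGF Trap and 54.8 ± 6.76 in Fc, and Dtx3l averaged 45.4 ± 12, 41.7 ± 6.58 and 40.1 ± 6.4. Parp9 and Dtx3l overlap each other on opposite strands, so reads in the overlap could count for either.

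Eif2ak2 (chr17:78852564-78882573, minus strand, GENCODE M21 on GRCm38) encodes PKR, a kinase that stops translation when it binds double-stranded RNA. It had 18, 8.73 and 11.1 CPM in ABTAA, 22.3, 16 and 19.1 in VEGF Trap, and 19.3, 23.5 and 22 in Fc. All 3 ABTAA libraries were below all Fc libraries, while ABTAA 1 lay among the VEGF Trap libraries. The log2 fold change was -0.77 ± 0.23 in ABTAA against Fc (95% interval -1.26 to -0.29, edgeR adjusted p = 0.0974). It was -0.60 ± 0.23 in ABTAA against VEGF Trap (adjusted p = 0.949) and -0.18 ± 0.22 in VEGF Trap against Fc (adjusted p = 0.76). The adjusted p in ABTAA against Fc was between 0.0375 and 0.338 when single libraries were left out. In ABTAA against VEGF Trap its fold change was -0.96 without ABTAA 1 and -0.38 without ABTAA 2. The gene overlaps exons of Gm26637 and n-R5s29 on the other strand.

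Trim25 encodes the ubiquitin ligase that switches on the sensor RIG-I. It had 78.5, 64.3 and 62.9 CPM in ABTAA, 73.5, 66.8 and 83.6 in VEGF Trap, and 48.9, 63.7 and 54.7 in Fc. All VEGF Trap libraries were above all Fc libraries, and ABTAA 3 lay just below the highest Fc library. VEGF Trap against Fc gave 0.42 ± 0.14 (95% interval 0.12 to 0.72, edgeR adjusted p = 0.152) and ABTAA against Fc 0.30 ± 0.14 (adjusted p = 0.3), which was 0.19 without ABTAA 1. Trim25 was not ordered like most members within ABTAA, where libraries 2 and 3 were nearly equal.

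Bst2 encodes tetherin, which holds budding virus at the cell surface, and Rsad2 encodes viperin, an enzyme that makes a chain-terminating nucleotide. Bst2 had 328.9, 212.3 and 262.8 CPM in ABTAA, 434.4, 202.1 and 253.2 in VEGF Trap, and 211.9, 248.2 and 222.2 in Fc. VEGF Trap 1 was the highest and VEGF Trap 2 the lowest of the 9 libraries, and VEGF Trap against Fc gave 0.38 ± 0.22 (edgeR adjusted p = 0.428), which was 0.01 without VEGF Trap 1. Rsad2 had 93.9, 34 and 43 CPM in ABTAA, 102.1, 66 and 47.3 in VEGF Trap, and 66.6, 63.7 and 50.9 in Fc. ABTAA 1 and VEGF Trap 1 were above every Fc library and the groups overlapped, with -0.34 ± 0.31 in ABTAA against VEGF Trap (adjusted p = 0.965), which was -0.91 without ABTAA 1 and 0.00 without VEGF Trap 1. Ifi44, an interferon-induced protein, was chosen after its values were seen and had 52.8, 14.7 and 14.2 CPM in ABTAA, 39.9, 14.6 and 23.6 in VEGF Trap, and 29.1, 40.2 and 23.1 in Fc. ABTAA 1 was the highest of the 9 and 3.71-fold above ABTAA 3, the lowest, and ABTAA against Fc gave -0.16 ± 0.42 (adjusted p = 0.893).

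Among the other 8 effectors and induced genes the lowest edgeR adjusted p of any comparison was 0.356, for Ifi27l2a in ABTAA against Fc at -0.44 ± 0.23. Xaf1, a factor that favours cell death, averaged 8.97 ± 4.72 CPM in ABTAA, 8.27 ± 2.89 in VEGF Trap and 12 ± 0.371 in Fc, and its log2 fold change was -0.52 ± 0.32 in VEGF Trap against Fc (edgeR adjusted p = 0.462). Ifi27l2a itself averaged 43.5 ± 13.7, 50.6 ± 14.6 and 58.8 ± 9.88 CPM in ABTAA, VEGF Trap and Fc. Ifitm3, which stops viruses in the endosome, averaged 188.6 ± 41.7, 181.4 ± 21.3 and 201.3 ± 25.4 CPM. Rtp4, a chaperone of receptors, averaged 52.2 ± 20.1, 52.9 ± 16.8 and 44.7 ± 5.38 CPM, and Cmpk2, a mitochondrial nucleotide kinase, averaged 10.1 ± 4.33, 11.3 ± 2.95 and 9.39 ± 1.86 CPM. Lgals3bp, a secreted glycoprotein, averaged 177.5 ± 45, 182.8 ± 23.9 and 172.8 ± 31.3 CPM, and Ifi35 averaged 23.2 ± 4.67, 23.1 ± 2.06 and 22.9 ± 2.35 CPM. Samhd1, which destroys the deoxynucleotides that viruses need, was the steadiest member at 230.9 ± 24.9, 224.8 ± 6.34 and 220.3 ± 20 CPM in ABTAA, VEGF Trap and Fc.

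The interferon-inducible GTPases act on membranes around intracellular pathogens. Igtp had 23.9, 14.8 and 14.4 CPM in ABTAA, 17.2, 13.9 and 21.6 in VEGF Trap, and 12.8, 13.6 and 11.3 in Fc. Every library of both treated groups was above every Fc library, with VEGF Trap 2 at 13.9 and Fc 2 at 13.6 nearly equal. The log2 fold change was 0.50 ± 0.22 in ABTAA against Fc (edgeR adjusted p = 0.267) and 0.48 ± 0.22 in VEGF Trap against Fc (adjusted p = 0.314), both against the same Fc libraries. They were 0.22 without ABTAA 1 and 0.31 without VEGF Trap 3. Irgm1, a regulator of these GTPases, averaged 14.3 ± 8.07 CPM in ABTAA, 11.7 ± 3.43 in VEGF Trap and 10.6 ± 2.22 in Fc, and ABTAA 1 alone held 23.5. Iigp1 averaged 39.5 ± 23.6, 46.4 ± 12.6 and 42.3 ± 5.21 CPM, Gbp3 38.9 ± 16.3, 46.4 ± 17.1 and 46.8 ± 1 CPM, and Gbp2 7.2 ± 3.43, 7.19 ± 1.85 and 7.04 ± 1.27 CPM in ABTAA, VEGF Trap and Fc. In ABTAA the SD of these 4 genes was larger than in Fc, and their means differed between groups by less than the ABTAA SD.

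The MHC class I genes did not move as 1 block. H2-D1 and H2-K1 encode class I heavy chains, and B2m the light chain that both need. H2-D1 (chr17:35262730-35267499, plus strand) had 487.3, 342.6 and 423 CPM in ABTAA, 546.3, 398.1 and 385.8 in VEGF Trap, and 641.4, 659.2 and 499 in Fc. All ABTAA libraries were below all Fc libraries, and VEGF Trap 1 was above the lowest Fc library. The log2 fold change was -0.52 ± 0.16 in ABTAA against Fc (95% interval -0.86 to -0.19, edgeR adjusted p = 0.102) and -0.44 ± 0.16 in VEGF Trap against Fc (-0.77 to -0.10, adjusted p = 0.183). H2-K1 and B2m were chosen after their values were seen. H2-K1 had 838.1, 477.6 and 609.8 CPM in ABTAA, 1121.4, 516.3 and 604.9 in VEGF Trap, and 830, 649.4 and 653 in Fc, and its fold changes were -0.15 ± 0.24 and 0.07 ± 0.24 against Fc (adjusted p = 0.817 and 0.93). B2m had 1117.3, 738 and 850.4 CPM in ABTAA, 1168.2, 836.1 and 880.6 in VEGF Trap, and 855.1, 829.6 and 837.7 in Fc. The Fc libraries of B2m lay close together, while library 1 of both treated groups was above all of them. The 3′ end of H2-K1 matches a sequence in 4 other genes, so its count is uncertain. Of these, Gm7030 and Gm8909 are counted as separate genes.

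Tap1 and Tap2 encode the paired subunits of the transporter that brings peptides to class I molecules. Tap1 (chr17:34187553-34197225, plus strand) had 142.1, 84.7 and 127.3 CPM in ABTAA, 173.1, 105.5 and 127.8 in VEGF Trap, and 94.9, 77.4 and 91.9 in Fc. All VEGF Trap libraries were above all Fc libraries, and ABTAA 2 lay among the Fc libraries. VEGF Trap against Fc gave 0.62 ± 0.19 (95% interval 0.21 to 1.03, edgeR adjusted p = 0.12) and ABTAA against Fc 0.42 ± 0.19 (adjusted p = 0.282), and these were 0.41 without VEGF Trap 1 and 0.26 without ABTAA 1. Tap2 (chr17:34203527-34216321, plus strand) had 123.1, 131.9 and 78.8 CPM in ABTAA, 99.7, 82.2 and 99.1 in VEGF Trap, and 89.3, 59.3 and 76.1 in Fc. It was the member highest in ABTAA 2, the library that was lowest for 26 others, and ABTAA 3 overlapped Fc. ABTAA against Fc gave 0.58 ± 0.18 (95% interval 0.19 to 0.96, adjusted p = 0.119), VEGF Trap against Fc 0.32 ± 0.18 (adjusted p = 0.429) and ABTAA against VEGF Trap 0.25 ± 0.18 (adjusted p = 0.964). Tap1 overlaps an exon of Psmb9 on the other strand and Tap2 exons of Gm15821 and Gm20496.

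**Figure D5:**
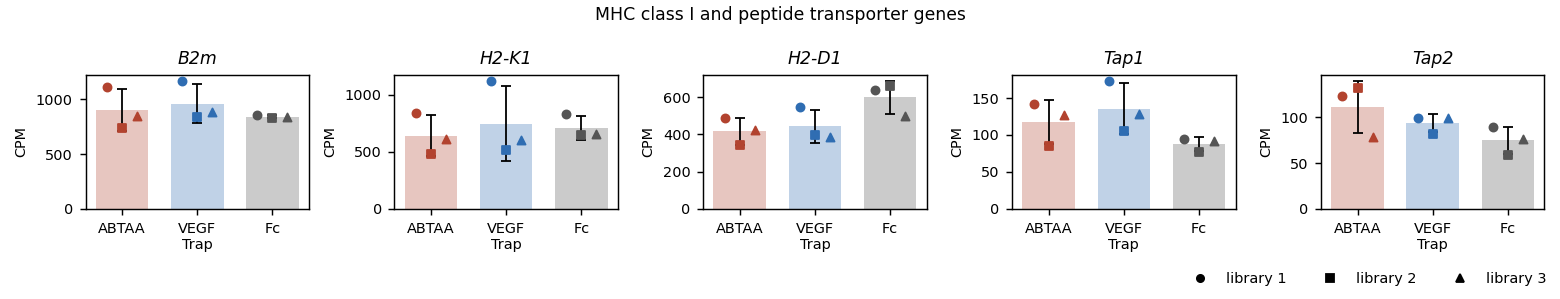
CPM of B2m, H2-K1, H2-D1, Tap1 and Tap2 in ABTAA, VEGF Trap and Fc, with bars for the mean of 3 libraries, error bars for the SD, and a circle, square and triangle for libraries 1, 2 and 3. H2-D1 lies at 342.6 to 487.3 CPM in ABTAA and at 499 to 659.2 in Fc, whereas the 3 VEGF Trap libraries of Tap1, from 105.5 CPM up, are above the highest Fc library at 94.9.

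Other genes of the interferon and class I pathway were read from 59 listed symbols outside the members, of which 50 passed the filter. In edgeR, 0 of the 50 passed the adjusted threshold in ABTAA against Fc, beside 1.40% of all tested genes. In VEGF Trap against Fc 1 was higher (1.02% of all genes were called), and in ABTAA against VEGF Trap 0 passed (0%). At an unadjusted p under 0.05 there were 9, 5 and 0 of the 50 in these comparisons, beside 16.9%, 15.4% and 5.06% of all genes. The 8 interferon ligands did not pass the filter, and the 1 with counts, Ifnk, had 20 counts in VEGF Trap 1 and 2 in VEGF Trap 2. The others had 0 counts in all 9 libraries, below a floor of 0.209 to 0.469 CPM. Of each remaining list the gene with the highest mean is given here, with its fold change in ABTAA and then in VEGF Trap against Fc. The kinase Jak1 gave 0.00 ± 0.12 and 0.08 ± 0.12, the transcription factor Stat3 -0.01 ± 0.09 and -0.02 ± 0.09, and Tmem173 (STING), the adaptor of DNA sensing, -0.01 ± 0.13 and -0.25 ± 0.13. The phosphatase Ptpn1 gave -0.07 ± 0.14 and -0.12 ± 0.14, and Canx (calnexin), which helps class I chains to fold, 0.00 ± 0.10 and -0.09 ± 0.10. The lowest adjusted p among these 5 was 0.387, for Tmem173 in VEGF Trap against Fc. Other listed genes came nearer to the threshold, and Tlr7 and Socs1 were chosen after their values were seen. Tlr7, a sensor of single-stranded RNA, had 22.7, 16.4 and 28.2 CPM in ABTAA, 35.2, 21.7 and 33.3 in VEGF Trap, and 37.4, 38.2 and 40 in Fc. All its treated libraries were below all Fc libraries, with -0.79 ± 0.20 in ABTAA (edgeR adjusted p = 0.0619) and -0.36 ± 0.20 in VEGF Trap against Fc (adjusted p = 0.402). Socs1, an inhibitor of JAK signalling, had 33.5, 28.2 and 23.5 CPM in ABTAA, 27.9, 30.2 and 38.3 in VEGF Trap, and 23.5, 18 and 17.7 in Fc. Its VEGF Trap libraries were above all Fc libraries, with 0.53 ± 0.18 in ABTAA (adjusted p = 0.138) and 0.70 ± 0.18 in VEGF Trap against Fc (adjusted p = 0.066).

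The called gene was Tapbp (tapasin, chr17:33915899-33929292, plus strand), which bridges class I molecules and the TAP transporter while peptides are loaded. It had 757.7, 565.9 and 554.1 CPM in ABTAA, 823.4, 644.5 and 748.6 in VEGF Trap, and 520.6, 492.7 and 433.1 in Fc. Every treated library was above every Fc library, with 0.62 ± 0.13 in VEGF Trap against Fc (edgeR adjusted p = 0.0448) and 0.38 ± 0.13 in ABTAA against Fc (adjusted p = 0.161). The difference between the treated groups was -0.24 ± 0.13 (adjusted p = 0.962). The call was lost without Fc 1, 2 or 3 (adjusted p = 0.0853, 0.163 and 0.126), without VEGF Trap 1 (0.0842) and without VEGF Trap 3 (0.113). Tapbp overlaps an exon of Gm19412 on the other strand.

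These other pathway genes followed the order of libraries less far than the members did, by their values. Of the 50, 33 were above their group mean in ABTAA 1, 15 in ABTAA 2 and 26 in ABTAA 3, and 33, 21 and 17 in VEGF Trap 1, 2 and 3. Their median deviation from the 9-library mean was 0.09 in ABTAA 1 and -0.10 in ABTAA 2, beside 0.44 and -0.46 for the members. The members' values were taken without the pseudocount of 0.5 CPM that the others hold. Of the 16 class I genes among them, 11, 3 and 7 were above the group mean in ABTAA 1, 2 and 3, and 14, 4 and 3 in VEGF Trap. The receptor and JAK genes gave 5, 2 and 6 of 9 in ABTAA and 6, 4 and 3 in VEGF Trap. The difference between the lists was not tested.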

How the data were processed

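Counts came from 9 deposited tables, 1 per library, of whole-number read counts per gene symbol, not normalized. Per the submitters' processing notes the authors used Bowtie2, edgeR and the mm10 build. Versions, annotation, counting tool, strand setting and treatment of reads with several matches were not given in the sources used here. The sample titles gave the groups.

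After filterByExpr and TMM scaling, the quasi-likelihood F-test of edgeR 4.0.16 (R 4.3.3) was run on all 9 libraries in 1 model with 6 residual degrees of freedom. P-values were adjusted by Benjamini-Hochberg over all 14054 tested genes within each contrast, with a threshold of 0.05. The biological coefficient of variation was 17.9%, and the median standard error of a log2 fold change was 0.24 for members and 0.20 for all genes. A pseudocount of 0.5 CPM was used only for SDs and for the log2 deviations of all tested genes and of the gene lists outside the members. The members' own log2 deviations were taken without it. The fit was checked on simulated counts.

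The members and gene lists were chosen with earlier results of these data known. The rule for members named with full statistics took those past the threshold and the 8 with the smallest p in each contrast, and Irf7, Isg15, Ifit3, Ifi44, H2-K1, B2m, Xaf1 and Ifi27l2a, with Tlr7 and Socs1 of the pathway lists, were added after their values were seen. Of the pathway genes, called ones and the highest of each list were named. The alternatives were DESeq2 1.42.0, limma-voom (limma 3.58.1), RLE scaling, library totals, no filter, 10 counts in 6 libraries, only the compared groups, a replicate block, counts divided by their common divisor, a test against a fold of 1.2, and each library left out.

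Coordinates are from GENCODE M21 (GRCm38). The last 200 bases of each member were searched with BLAST+ 2.17.0 for matches of at least 100 bases at 95% identity.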

Additional observations from a re-analysis of the deposited data

How the results depend on the processing

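The count of members called in ABTAA against Fc was 0 in edgeR and became 3 with DESeq2, 1 with limma-voom, 3 with no filter and 0 to 1 with each library left out. In VEGF Trap against Fc it became 1 with DESeq2, 2 with no filter and stayed 0 to 0 with each library left out, and in ABTAA against VEGF Trap it was 0 under every alternative run. The cause of these differences was not tested. The genes that crossed the threshold were Eif2ak2, H2-D1 and Tap2 in ABTAA against Fc and Tap1 and H2-D1 in VEGF Trap against Fc. Without a filter 3.45% and 3.11% of all genes were called in these comparisons. The median log2 fold change of the members ran from -0.30 (without ABTAA 1, 16 members at an unadjusted p under 0.05) to 0.16 (without ABTAA 2) in ABTAA against Fc, from -0.09 (without VEGF Trap 1) to 0.10 (without VEGF Trap 2) in VEGF Trap against Fc, and from -0.31 (without ABTAA 1) to 0.12 (without ABTAA 2) in ABTAA against VEGF Trap. The members' median log2 deviation in a library, a different measure, had an SD of 0.31 between libraries of a group. With library totals the members' median log2 fold change in VEGF Trap against Fc was -0.06, where all genes had -0.08. Without VEGF Trap 1 the fold changes of Rsad2 and Tap1 in ABTAA against VEGF Trap turned to 0.00 and 0.01, the upper ends of ranges from -0.91 and -0.36 (both without ABTAA 1) over the omissions of single libraries. An alternative chosen after seeing the data rescaled the counts of members above their group mean. Library totals gave 16 in Fc 1 in place of 25, and ABTAA 1 and 2 kept 44 and 2 under RLE scaling and library totals. Tapbp lost its call against a fold of 1.2 (adjusted p = 0.252). Deviations of all tested genes from their group mean were correlated between libraries of different groups. Same-numbered libraries gave 0.01 to 0.13, above 0.1 in 2 of 9 pairs, Fc 1 with ABTAA 1 and ABTAA 1 with VEGF Trap 1. Libraries with different numbers gave -0.10 to 0.05. Whether the number marks a shared batch was not tested, and no label says so. With the replicate block edgeR called 1 member in ABTAA against Fc (H2-D1) and 1 in VEGF Trap against Fc (Tap1), where 2.38% and 2.13% of all genes were called. The members' median absolute log2 fold changes (0.18, 0.25 and 0.13 in the 3 comparisons) were near or below their median standard error of 0.24. Depth limited the reading of the interferon ligands, whose 0 counts allow up to 0.209 to 0.469 CPM.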
